A study of Mus musculus with 9 samples.

Results

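The genes described here are 8 genes of myelinating Schwann cells, namely Mbp, Pmp22, Prx, Mag, Egr2, Cnp, Pmp2 and Mal, taken by gene name from the arrays and not by any measured value. They were represented by 13 of the 41174 probes, and all 8 were among the 20898 genes tested. The samples were L3/L4 dorsal root ganglia (DRG) of adult mice, 5 injured by sciatic nerve transection and 4 uninjured, each hybridised in Cy5 against a universal mouse reference RNA (Stratagene) in Cy3, so that every value is a log2 ratio of DRG over reference. Both groups carry the labels jun.wt and cre.neg, that is, wild type for Jun and without Cre. The labelled time is 3 days after transection, in a source label that the uninjured samples share. The methods of the study give the same time for its arrays, while its results text names a different time point. The labels name no animals, strain or age beyond adult, so the groups were compared as unpaired, and p-values set a difference against the spread between these arrays. For nerve crush, the methods of the study name uninjured ganglia of the other side as controls. Whether injured and uninjured samples here share animals is not known, and the comparison treats them as independent.

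Schwann cells wrap the larger sensory axons of the ganglion and nerve in compact myelin. In the stretch of nerve beyond a cut they lose contact with living axons, switch their myelin genes off and become repair cells, whereas the ganglion lies on the side of the cut that stays attached to the cell body. The transcription factor Egr2, together with Sox10, switches on the genes of the myelin sheath in these cells, and Jun opposes it. In the bulk RNA of a ganglion, fewer cells of a type and less RNA per cell cannot be told apart.

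None of the 8 myelin genes passed the test for a difference between injured and uninjured DRG, and the arrays of both groups overlapped in all 8. Across all genes tested, 25.4% passed at an adjusted p under 0.05 (limma, Benjamini-Hochberg adjustment over all genes) and 23.9% had groups that did not overlap. At an unadjusted p under 0.05 there were 2, Prx and Mag, with limma p-values of 0.0342 and 0.0283, beside 36.6% of all genes tested. The median difference of the 8 genes was 0.17 on the log2 scale, against 0.0019 for all genes tested, and 6 of the 8 differences lay above 0. What the arrays showed in place of a common change was a spread between samples of the same group that most of these genes shared, and a single probe of Mbp that was lower after injury.

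The quality of the arrays was similar. The median Cy5 signal was between 156 and 238 and between 71.0% and 78.9% of spots were above background, both lowest on injured array 5. The 9 arrays lay on 3 slides, of which slide 1 held uninjured arrays 2, 3 and 4, slide 2 held uninjured array 1 with injured arrays 1, 2 and 5, and slide 3 held injured arrays 3 and 4. Muscle marker genes stood on average 2.21 and 3.67 (log2) above the uninjured mean on injured arrays 2 and 4, with 8 of 8 muscle genes measured, and were between −0.056 and 0.36 on the other injured arrays. Of the sensory neuron markers, 8 of 8 were above the filter on dim probes, and 3 of 6 oligodendrocyte markers (Mog, Opalin and Ermn) were not. All muscle, macrophage, fibroblast and red blood cell markers were above this filter too, so these counts do not test the tissue label.

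Promoter sequences are shown for 3 of the genes, because Pmp22 and Mag varied together between arrays of the same group (r = 0.87 across 9 arrays, each value as its deviation from its group mean) and Pmp22 and Cnp did not (r = −0.26). They come from RefSeq (GRCm38.p6), run from 250 bases before to 50 bases after a listed start and were found for 6 of the 8 genes in 15 windows, with Mbp and Pmp2 not shown. Capitals mark matches to ACAAAG, the core recognised by Sox proteins, and to GTGGGNG, part of the site recognised by Egr proteins, searched on both strands. The 3 windows are chr11:63128732-63129031 (plus strand), the first of 4 Pmp22 starts, chr7:30914814-30915113 (minus strand), the first of 3 Mag starts in the RefSeq listing, and chr11:100574689-100574988 (plus strand), the only Cnp start.
Pmp22: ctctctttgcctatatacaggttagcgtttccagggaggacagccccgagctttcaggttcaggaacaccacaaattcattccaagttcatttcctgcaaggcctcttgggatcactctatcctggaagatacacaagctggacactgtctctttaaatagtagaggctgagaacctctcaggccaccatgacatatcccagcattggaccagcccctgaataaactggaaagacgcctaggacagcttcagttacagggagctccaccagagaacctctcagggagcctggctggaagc
Mag: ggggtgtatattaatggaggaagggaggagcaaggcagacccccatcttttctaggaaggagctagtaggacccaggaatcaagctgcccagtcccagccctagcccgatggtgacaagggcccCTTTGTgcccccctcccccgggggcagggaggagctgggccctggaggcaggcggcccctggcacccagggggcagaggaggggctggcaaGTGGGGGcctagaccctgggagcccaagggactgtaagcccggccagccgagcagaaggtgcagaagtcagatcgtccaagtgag
Cnp: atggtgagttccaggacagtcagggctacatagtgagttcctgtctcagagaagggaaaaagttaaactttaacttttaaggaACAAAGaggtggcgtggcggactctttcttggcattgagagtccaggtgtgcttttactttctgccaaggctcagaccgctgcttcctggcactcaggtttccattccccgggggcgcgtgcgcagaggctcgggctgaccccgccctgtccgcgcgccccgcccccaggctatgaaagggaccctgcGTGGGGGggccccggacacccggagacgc

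The Mag and Cnp windows each hold 1 match to both motifs, and the Pmp22 window holds none. Over all 15 windows of the 6 genes, which overlap in part, ACAAAG was found in 3 (2 genes, Mag and Cnp) and GTGGGNG in 6 (4 genes, Prx, Mag, Egr2 and Cnp). Of all 32851 windows of this length, 18.7% hold ACAAAG, 31.6% hold GTGGGNG and 4.998% hold both. A match describes letters in these windows and no more.

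Among the proteins of compact myelin, Mbp encodes myelin basic protein, which holds the cytoplasmic faces of the sheath together. Its brightest probe (A_51_P349205, NM_010777), printed in 10 spots, had log2 ratios of 4.87, 4.54, 4.56 and 4.88 on uninjured arrays 1 to 4 and of 4.40, 4.78, 4.76, 5.02 and 5.25 on injured arrays 1 to 5. The injured arrays lay on both sides of the uninjured ones, with injured array 1 lowest and injured arrays 4 and 5 highest. The difference was 0.13 (standard error 0.155, 95% interval −0.21 to 0.47, limma adjusted p = 0.593).

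Pmp22 encodes a membrane protein of compact myelin whose dosage is known to matter in inherited neuropathy. Its log2 ratios were 5.28, 3.98, 4.77 and 4.93 on the uninjured arrays and 4.97, 5.25, 5.21, 5.59 and 4.43 on the injured arrays (probe A_51_P258529, NM_008885, chromosome 11 of build mm7, 63240978 to 63241037). The lowest value was that of uninjured array 2 and the second lowest that of injured array 5. The difference of 0.35 (standard error 0.269, 95% interval −0.25 to 0.95) had a limma adjusted p of 0.390. A second probe named Pmp22 (A_52_P1067763, AK035065) has coordinates that run the other way from those of the first, was not well above background on any array, and gives no value for the gene.

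Pmp2, a fatty-acid-binding protein of peripheral myelin, was measured by 1 probe (A_52_P89767, NM_001030305, chromosome 3, 10190607 to 10190666). It had log2 ratios of 1.81, 0.34, 1.55 and 1.14 on uninjured and 1.5, 1.4, 0.68, 1.46 and 0.66 on injured arrays. The uninjured values enclosed all injured values, with a difference of −0.068 (standard error 0.295, 95% interval −0.72 to 0.58, limma adjusted p = 0.900). The reference RNA was not well above background at this probe on any of the 9 arrays, so the height of the ratio is set in part by the background offset.

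Mal, a proteolipid that sorts membrane components to the sheath, was measured by 2 probes on chromosome 2 (NM_010762). The brighter (A_51_P499071) had log2 ratios of 4.24, 3.45, 3.82 and 3.90 on uninjured arrays and 4.05, 4.27, 3.93, 4.01 and 2.81 on injured arrays. Injured arrays 1 to 4 lay close together and injured array 5 lay below all other arrays of both groups. The second probe (A_52_P562661) had 3.74, 3.03, 3.42 and 3.54 on uninjured and 3.52, 3.70, 3.56, 3.69 and 2.73 on injured arrays, again with injured array 5 alone at the bottom. The difference at the brighter probe was −0.038 (standard error 0.268, 95% interval −0.63 to 0.56, limma adjusted p = 0.939) and at the second probe 0.0063 (adjusted p = 0.989 over all probes).

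Prx encodes periaxin, a scaffold protein that links the outer Schwann cell membrane to the basal lamina. Its 4 uninjured arrays were close together, at 4.06, 3.94, 4.01 and 3.98, and the injured arrays were at 4.41, 4.45, 4.07, 4.41 and 3.95 (probe A_52_P315837, NM_019412, chromosome 7, 24439793 to 24439852). Injured arrays 1 to 4 lay above every uninjured array and injured array 5 lay below 3 of them. The difference was 0.26 (standard error 0.107, 95% interval 0.023 to 0.50, limma adjusted p = 0.103, two-sided exact permutation p = 0.0952 over 126 splits). Without injured array 5, Prx passed the test (0.34, limma adjusted p = 0.0169), as it did with array weights (adjusted p = 0.0235) and with slide as a random block (adjusted p = 0.0257). Under these settings, in that order, 5443, 6356 and 7404 of all 20898 genes were called, against 5309 in the main fit.

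Mag encodes myelin-associated glycoprotein, an adhesion molecule on the innermost, axon-facing membrane of the sheath. Its brighter probe (A_51_P435428, NM_010758, chromosome 7, 27838993 to 27839051) had log2 ratios of 3.08, 2.08, 2.91 and 2.48 on uninjured arrays and 2.92, 3.63, 3.85, 3.89 and 2.62 on injured arrays. Injured arrays 2, 3 and 4 lay above every uninjured array, and injured arrays 1 and 5 lay within the uninjured range. The difference of 0.74 was the highest of the 8 genes (standard error 0.292, 95% interval 0.096 to 1.39, limma adjusted p = 0.0902, exact permutation p = 0.0794). It became 0.93 (adjusted p = 0.0229) without injured array 5, and passed the test also with array weights (adjusted p = 0.0365) and with slide as a random block (adjusted p = 0.0252). These settings also called more genes across the whole array than the main fit.

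The height of this difference depended on the reference channel. The same reference RNA was in Cy3 on every array, yet the quantile-normalised Cy3 signal of this Mag probe lay between 8.44 and 9.18 (log2) on uninjured and between 7.78 and 8.64 on injured arrays, a difference of −0.54 (standard error 0.192, limma adjusted p = 0.427 over all genes). The other 7 genes differed in Cy3 by between −0.12 and 0.070. In the Cy5 channel alone, which holds the DRG sample, Mag differed by 0.20 (limma adjusted p = 0.487). The second Mag probe (A_52_P375021, same transcript) had log2 ratios of 2.05, 1.24, 1.57 and 1.54 on uninjured and 1.67, 1.83, 1.78, 2.01 and 1.60 on injured arrays, a difference of 0.18 (adjusted p = 0.415 over all probes). What made the Cy3 signal of the brighter probe differ was not tested.

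Cnp, listed in the files as Cnp1, encodes an enzyme of non-compact myelin. Its log2 ratios were 2.94, 2.98, 2.57 and 2.64 on uninjured and 3.01, 2.91, 2.80, 3.12 and 3.10 on injured arrays (probe A_51_P232901, NM_009923, chromosome 11, 100690342 to 100690401). Injured arrays 1, 4 and 5 lay above every uninjured array. The difference was 0.21 (standard error 0.104, 95% interval −0.025 to 0.44, limma adjusted p = 0.183), and it passed the test only with slide as a random block (0.25, adjusted p = 0.0416) among the alternatives run. That setting called 7404 of all 20898 genes tested.

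Egr2, the myelin transcription factor itself, was printed in 10 spots (probe A_51_P173043, NM_010118, chromosome 10, 67145376 to 67145435). Its log2 ratios were 1.95, 0.01, 1.04 and 1.09 on uninjured and 1.01, 0.96, 0.88, 2.05 and 0.25 on injured arrays, the widest spread within a group of the 8 genes. The range was 1.94 among uninjured and 1.80 among injured arrays, and the 2 group means differed by 0.0041 (standard error 0.394, 95% interval −0.87 to 0.88, limma adjusted p = 0.996). The values are compatible with a change of Egr2 anywhere inside this interval, which is not a limit of detection.

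**Figure D1:**
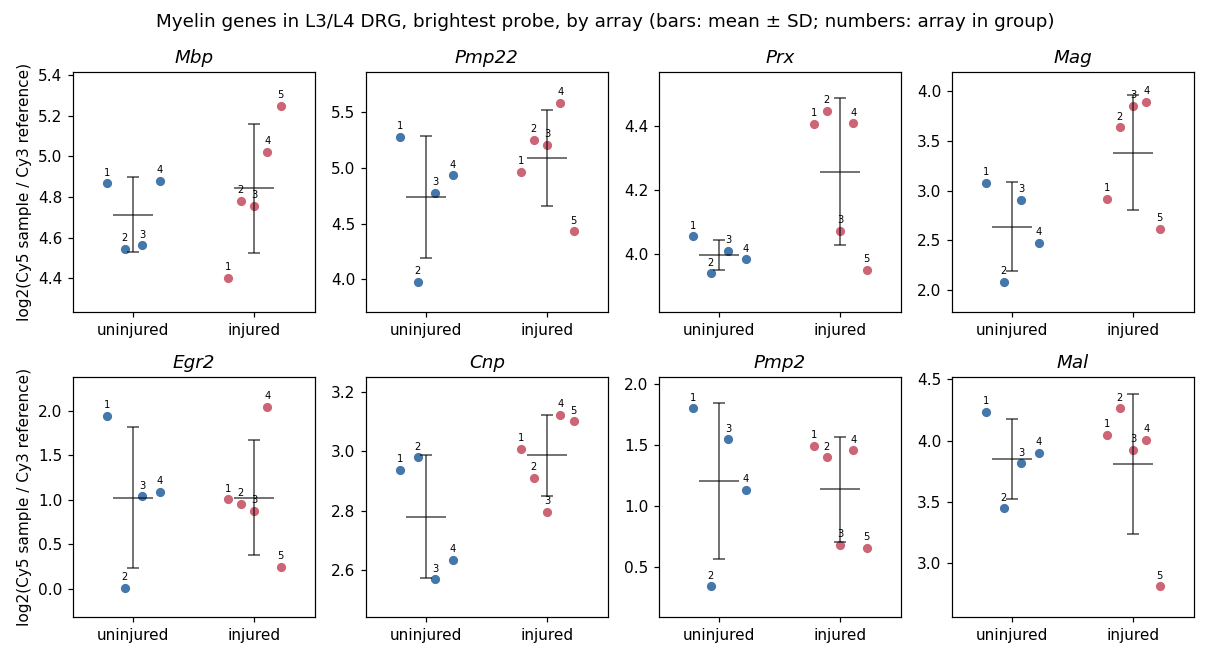
Log2 ratio of DRG (Cy5) over reference (Cy3) at the brightest probe of each of the 8 genes, on its own axis. Points are single arrays numbered within their group and bars are mean ± SD (4 uninjured, 5 injured arrays); the groups overlap in every panel, with uninjured array 2 and injured array 5 at or near the bottom in most.

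Slide 2 was the only one to hold arrays of both groups, and its single uninjured array was the one with the highest mean over the 8 genes. On that slide alone (1 uninjured, 3 injured arrays) the differences, which a fit with slide as a fixed term also gave, were −1.21 for Egr2, −0.62 for Pmp2, −0.53 for Mal, −0.39 for Pmp22, −0.057 for Mbp, −0.021 for Mag, 0.068 for Cnp and 0.21 for Prx. None of the 8 was called in that fit (the lowest limma adjusted p was 0.242, for Egr2). The signs of Egr2, Pmp22, Mbp and Mag turned against those over all arrays, so that no direction is given for them.

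One probe of the 13 did differ. A_52_P604195 is listed for Mbp transcript variant 8 (NM_001025245) and lies 14.3 kb and 26.8 kb before the other 2 Mbp probes on chromosome 18. The Mbp locus is known to give classic transcripts for myelin basic protein and, from a start farther upstream, golli transcripts that are also made outside myelinating cells; the files do not say to which kind this variant belongs. Its log2 ratios were 1.08, 1.15, 0.99 and 0.93 on uninjured and 0.44, 0.25, 0.45, 0.25 and 0.34 on injured arrays. All injured arrays lay below all uninjured arrays.

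The variant 8 probe fell by 0.69 on the log2 scale (standard error 0.0709), with a limma adjusted p of 7.28e-05 over all 31186 probes tested, of which 13.0% were called lower and 23.5% in either direction. The exact permutation p was 0.00794, the smallest that the splits of 5 and 4 arrays allow. Under 21 alternatives the difference stayed between −0.81 and −0.65 and passed the threshold each time, with adjusted p-values between 9.64e-06 and 0.0207. On slide 2 alone it was −0.74. The third Mbp probe (A_52_P329451, NM_010777) had log2 ratios of 3.77, 3.09, 3.54 and 3.71 on uninjured and 3.39, 3.75, 3.62, 3.91 and 3.10 on injured arrays, which overlapped, and differed by 0.029 (adjusted p = 0.933 over all probes). When the 3 Mbp probes were averaged, the gene stood at −0.18 (limma adjusted p = 0.143), so that which probe stands for Mbp sets the sign of its value.

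**Figure D2:**
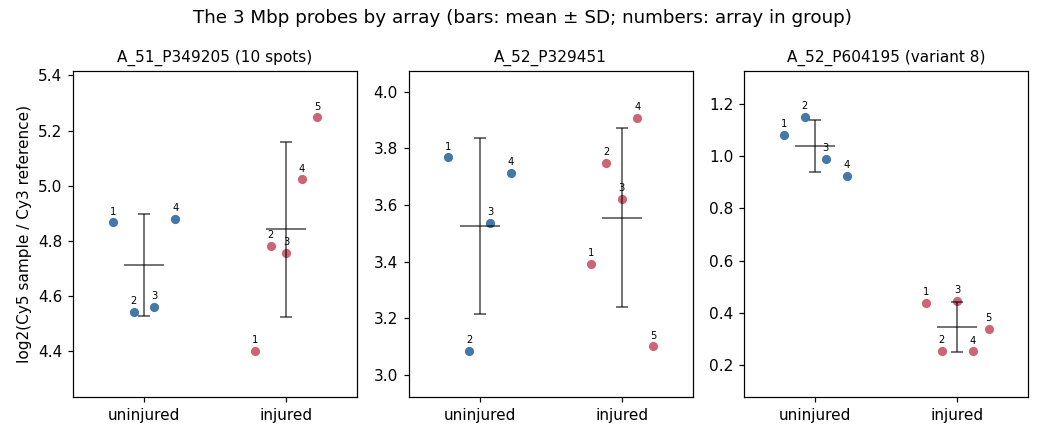
Log2 ratio of DRG over reference at each of the 3 Mbp probes, on its own axis, by group. Points are single arrays and bars are mean ± SD; at the variant 8 probe the 5 injured arrays (0.25 to 0.45) lie below the 4 uninjured arrays (0.93 to 1.15), and at the other probes the groups overlap.

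**Figure D3:**
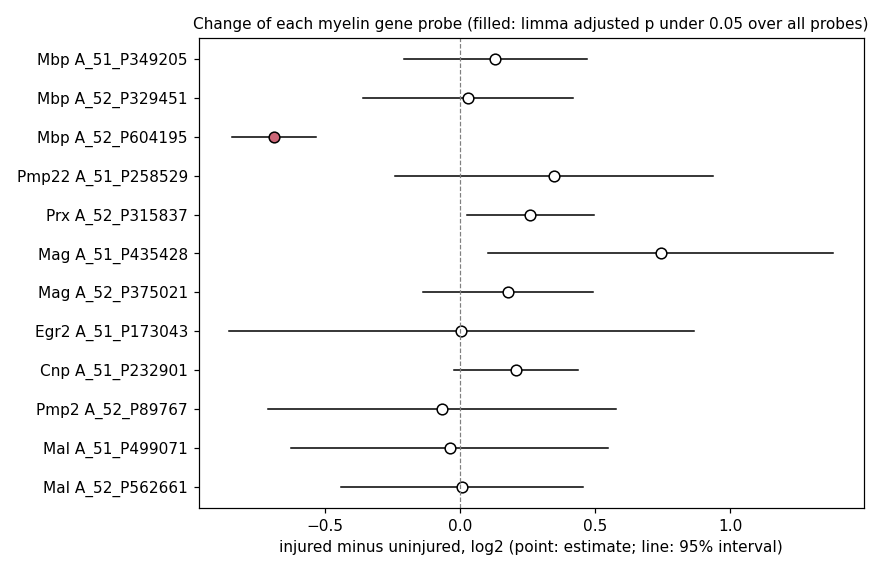
Difference between injured and uninjured DRG on the log2 scale for the 12 probes of the 8 genes that passed the filter on dim probes. Points are estimates, lines 95% intervals and the filled point the only probe with a limma adjusted p under 0.05, the Mbp variant 8 probe at −0.69.

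The spread between arrays of one group was large for most of these genes. The SD among uninjured arrays was 0.792 for Egr2, 0.640 for Pmp2, 0.548 for Pmp22 and 0.447 for Mag, against a median of 0.105 over all genes tested, and among injured arrays it was 0.646 for Egr2, 0.578 for Mag, 0.572 for Mal and 0.430 for Pmp2, against a median of 0.128. Prx was an exception among uninjured arrays, with an SD of 0.0483, and Cnp among injured arrays, with 0.136. The spread followed the same arrays from gene to gene. Uninjured array 1 was the highest of its group in 6 of the 8 genes and uninjured array 2 the lowest in 7, while injured array 4 was the highest of its group in 4 and injured array 5 the lowest in 6.

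Averaged over the 8 genes, these 4 arrays lay 0.41 above, 0.45 below, 0.38 above and 0.43 below the mean of their own group. Likeness is given as Pearson's r across the 9 arrays, each value first taken as its deviation from its group mean, as a description without a p, since the points share the same RNA, slides and normalisation. With the mean of the other 7 genes, r was 0.96 for Pmp22, 0.94 for Egr2, 0.78 for Pmp2, 0.75 for Mag, 0.75 for Mal and 0.64 for Prx. Without uninjured array 2 and injured array 5, the arrays farthest from the median of the 8-gene mean, r was 0.88 for Pmp22 and 0.87 for Egr2. It dropped to 0.45 for Pmp2, 0.41 for Mal, 0.38 for Mag and 0.36 for Prx, each at its brightest probe. At these probes the likeness of the last 4 rests in part on those arrays. The second Mag probe had an r of 0.92 over all arrays and 0.89 without those arrays, and the second Mal probe 0.84 and 0.74. For Pmp22 and Mal the arrays farthest out on the mean of the other 7 genes were uninjured arrays 1 and 2, and without these r was 0.93 and 0.70.

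Mbp and Cnp stood apart over all 9 arrays, with r of −0.039 and −0.16 (the windows of Cnp and Mag each hold both motifs). For Mbp this held for its 10-spot probe, on which injured array 5 was the highest of its group, whereas the third probe, on which injured array 5 was the lowest, had an r of 0.92. The variant 8 probe had an r of −0.36. When uninjured array 2 and injured array 5 were left out, r was 0.78 for Cnp, which did not fall with the others on those arrays. It was then 0.55 for the 10-spot Mbp probe, 0.69 for the third and −0.19 for the variant 8 probe. The low r of Cnp and of the 10-spot Mbp probe thus rests in part on those arrays.

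**Figure D4:**
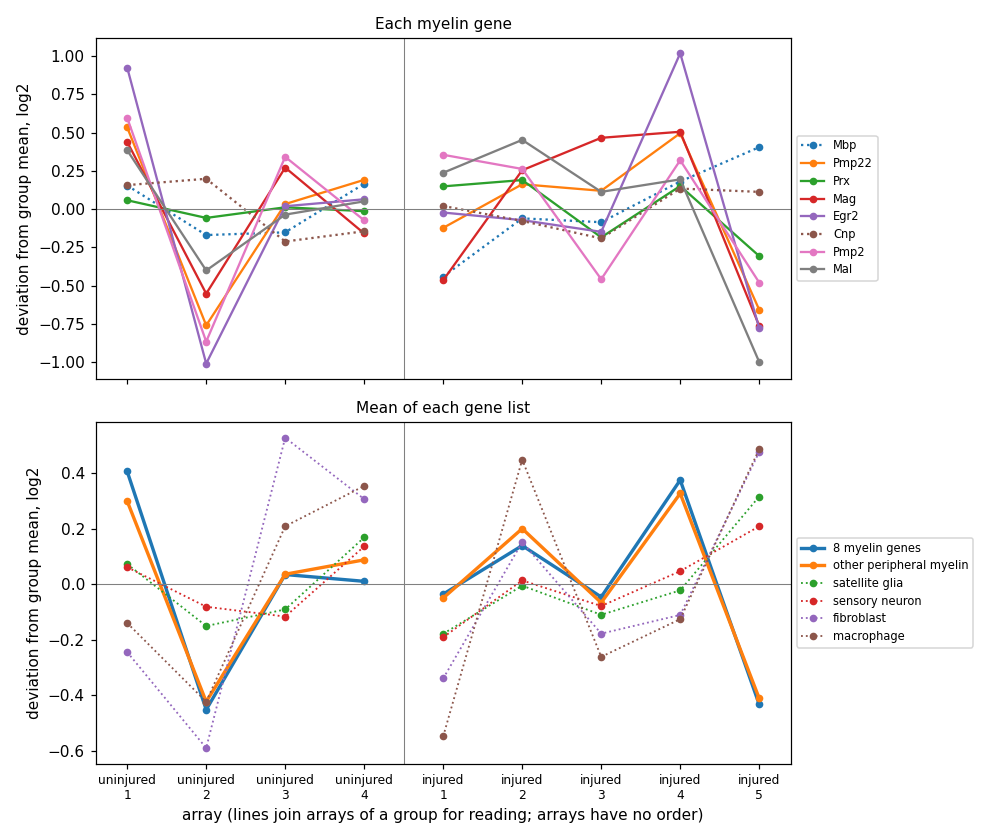
Deviation of each array from the mean of its group on the log2 scale, for each of the 8 genes (top) and for the mean of 6 gene lists (bottom). Pmp22, Egr2, Mag, Mal and Pmp2 dip on uninjured array 2 and injured array 5, and Mbp and Cnp (dotted, top) do not dip on injured array 5. The other peripheral myelin genes follow the 8 genes, and the satellite glia and sensory neuron lists move less. The fibroblast and macrophage lists also move far, with dips on uninjured array 2 (−0.59 and −0.42) and their highest injured values on injured array 5.

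The 10 genes outside the 8 whose deviations were most like those of their mean were Cntf (r = 0.995), Tesk2 (0.989), Rimklb (0.987), Fa2h (0.984), Ugt8a (0.983), Slc19a2 (0.982), B3galt2 (0.980), Efhd1 (0.975), Sucnr1 (0.972) and an unnamed probe, A_52_P764117 (0.972). Cntf encodes ciliary neurotrophic factor, which is made by Schwann cells. Fa2h and Ugt8a encode enzymes that make the galactolipids of myelin. None of the 10 passed the test between injured and uninjured DRG, with limma differences between −0.18 and 0.13.

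Of 13 other genes of peripheral myelin, 13 were measured and 0 passed the limma test, also 0 at an unadjusted p under 0.05 (36.6% of all genes), with a median difference of 0.10 against 0.0019 over all genes. Their differences ran from −0.15 for Ncmap, a small membrane protein of non-compact myelin, to 0.50 for Cadm4, an adhesion molecule between axon and Schwann cell, which passed when injured array 5 was left out (0.73, limma adjusted p = 0.0398). Across arrays, r with the mean of the 8 genes was highest for Fa2h and Ugt8a, at 0.98, and lowest for Gjb1, at 0.42. It ran from −0.53 for Nab2 to 0.86 for Zeb2 among regulators of Schwann cell myelination. Among immature and repair Schwann cell genes it ran from −0.67 for L1cam to 0.90 for Shh.

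Of 14 regulators of Schwann cell myelination, all were measured, 2 were higher after injury and 1 was lower, beside 11.5% called higher and 13.9% called lower over all genes. Adam22 met the filter of 4 arrays only through the uninjured group. Zeb2, a transcriptional repressor needed for myelination, rose by 0.37 (standard error 0.0974, limma adjusted p = 0.0177), and Erbb2, a subunit of the neuregulin receptor, rose by 0.25 (adjusted p = 0.0101). Nrg1, the neuregulin ligand that axons present to Schwann cells, fell by 0.37 (standard error 0.0823, limma adjusted p = 0.00815). These 3 genes did not pass when slide was fitted as a fixed term (0.17 for Zeb2 and −0.34 for Nrg1). With median centring neither Zeb2 (0.29, adjusted p = 0.235) nor Erbb2 passed, and with averaged probes Zeb2 was at 0.092 (adjusted p = 0.488) and Erbb2 did not pass. Sox10, the partner of Egr2, differed by 0.30 (standard error 0.113, limma adjusted p = 0.0780), and passed without uninjured array 1 (0.39, adjusted p = 0.0328), without injured array 1 (0.36, adjusted p = 0.0318) and with slide as a random block (0.37, adjusted p = 0.0119). Pou3f1, which acts before Egr2 in the lineage, differed by −0.099 (adjusted p = 0.574).

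Of 17 genes of immature and repair Schwann cells, 14 were measured, with Olig1, Artn and Btc not above the filter. Of the 14, 5 were higher and 1 was lower, beside 25.4% of all genes called in either direction. Gfap is counted among the 5 with the limit given below. Jun rose by 1.77 (standard error 0.231, limma adjusted p = 0.000337) and was the highest of the list. Gfap, an intermediate filament protein of glia, rose by 1.08 (standard error 0.0977, limma adjusted p = 3.14e-05). Its probe was well above background in the DRG channel on 1 of 4 uninjured and 5 of 5 injured arrays and in the reference channel on 0 of 9. The probe therefore met the filter of 4 arrays only through the injured group, and its height and call depend on the handling of background. The difference of Gfap was 4.44 with Agilent's own ratio, 0.60 with averaged probes and 0.40, without passing, at an offset of 0. Bdnf, a neurotrophin, rose by 0.84, and the transcription factors Egr3 and Runx2 rose by 0.44 and 0.34. Id2, an inhibitor of myelin gene expression, was the lowest of the list and fell by 0.62 (standard error 0.126, adjusted p = 0.00496). When slide was fitted as a fixed term, Bdnf still passed, and so did Gfap with the same limit of its filter, but no other gene of this list. Jun, Bdnf and Gfap are also made by ganglion cells other than Schwann cells, whose part in these values was not tested.

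Among markers of the other cells of the ganglion, macrophage markers had a median difference of 0.73, with 2 of 8 called higher (Aif1, the highest, at 0.90, and Cd14) and Csf1r lowest at 0.26, and their mean stood between 0.076 and 1.11 above the uninjured mean on the injured arrays. Of 6 satellite glia markers 2 were called higher, with Glul (glutamine synthetase) highest at 0.78 and Gja1 lowest at −0.11, and of 8 neuron markers 1 was called lower (Scn9a, a sodium channel, at −0.54), with Prph highest at 0.16. Beside these macrophage, satellite glia and neuron counts, 11.5% of all genes were called higher and 13.9% lower. No fibroblast marker (0 of 5, from 0.045 for Pdgfra to 0.51 for Dcn), red blood cell marker (0 of 4, from 0.13 for Hbb-bt to 1.09 for Slc4a1), muscle marker (0 of 8, from 0.58 for Ckm to 2.03 for Myl1) or measured oligodendrocyte marker (0 of 3, from 0.00051 for Hapln2 to 0.11 for Mobp) was called by limma, and at an unadjusted p under 0.05 (36.6% of all genes) there were 0, 3, 1 and 0 in these lists. When slide was fitted as a fixed term, Aif1 (1.12), Cd14, Scn9a (−0.47) and the satellite glia gene Slc1a3 did not pass, and Slc1a3 was lost under several other settings, among them leaving out any 1 of the uninjured arrays.

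The counts of these lists moved with the settings, as did the count over all 20898 genes. That was 7404 with slide as a random block, 5234 without injured array 1 and 4790 in the Cy5 channel alone. It was 2641 with median centring and 1173 with slide as a fixed term, against 5309 in the main fit. Neuron markers called were 4 with median centring (Nefl, Scn10a, Scn9a and Snap25) and 4 in the Cy5 channel alone (Nefh, Scn10a, Scn9a and Snap25), and 0 with the filter for both channels above background, where Scn9a gave no value. Red blood cell markers called were 3 with slide as a random block (Hba-a1, Alas2 and Slc4a1), 2 without injured array 1 (Hba-a1 and Alas2), 1 with Agilent's own ratio (Slc4a1) and 1 without injured array 3 (Alas2), and Hbb-bt was at 1.44, without passing, in the Cy5 channel alone. Macrophage markers called were 5 with slide as a random block and 4 each in the Cy5 channel alone and without injured array 1. Regulators of myelination called were 6 with slide as a random block, 5 each in the Cy5 channel alone and without injured array 1, and 0 with slide as a fixed term. On injured array 5, where the myelin genes were lowest, the satellite glia, macrophage and fibroblast lists were each at their highest of the injured arrays (0.48, 1.11 and 0.76 above the uninjured mean). On uninjured array 2, also low in myelin genes, the satellite glia, macrophage and fibroblast lists were at their lowest of the uninjured arrays (−0.15, −0.42 and −0.59). On injured arrays 2 and 4, where muscle genes were raised, the mean of the 8 myelin genes was 0.34 and 0.57 above the uninjured mean, against 0.16 and 0.15 on injured arrays 1 and 3. The part of these cells in the myelin values was not tested.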

How the data were processed

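L3/L4 DRG RNA of 5 injured and 4 uninjured samples was measured on 9 two-colour Agilent arrays. The deposited scanner files hold mean spot and median local background intensity per channel, together with a log10 ratio of Agilent's software. The authors' processed table holds log2 ratios of sample over reference, normalised within arrays, and limma is named in the submitters' processing notes. No columns of the authors' own comparisons were used.

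In R 4.3.3 with limma 3.58.1, background was corrected by normexp (offset 50), fitted on each array without spots of non-uniform local background (0 to 20 per array), which were left out. With these spots the fitted Cy5 background mean on injured array 2 was −358 in place of −15.5. Loess within arrays followed, with control spots at weight 0 and spots of a probe averaged. Probes with Cy5 well above background on at least 4 arrays were kept (31186 of 41174) and the brightest probe stood for a gene (20898 genes). No spot was saturated. Probe coordinates are those of the files, on build mm7.

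Groups were compared with lmFit and eBayes and Benjamini-Hochberg adjustment over all genes, or over all probes for single probes, at 0.05. For single values, all 126 splits of the arrays gave an exact permutation p, two-sided. The procedure was tested on simulated data with independent noise for each gene and array. These held neither the spread shared between genes nor the slide layout, so that test does not cover them. The 8 genes and the other lists were chosen with earlier results of these data known. Named are all 8 genes, the highest and lowest of each other list, Sox10, Pou3f1 and Jun (some genes that the rule would name are not reported here), the 10 genes most like the 8 across arrays, and further called members of a list, which were picked with their values in view. Other settings tried were different background corrections, scalings, filters, channels, slide blocks, weights for arrays, averaged probes, a fold threshold of 1.5 and leaving out each array. The number of arrays limits the precision. Figures were drawn with Python and matplotlib.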

Additional observations from a re-analysis of the deposited data

Results flagged for a closer look

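Both Mal probes had 1 injured array far from the others. On injured array 5 the brighter probe (A_51_P499071) was at 2.81 against 3.93 for the nearest injured array, a gap of 0.766 of the range of the group, and the second probe (A_52_P562661) was at 2.73 against 3.52, a gap of 0.807 of the range. Dixon's test at the 95% level was applied to 26 groups of arrays (13 probes in both conditions), and chance alone flags about 1 group in 20. Without this array the difference of Mal was 0.21 in place of −0.038 (limma adjusted p = 0.339). The same array had the lowest median Cy5 signal of the 9 (156), and the part of that in the Mal values was not tested.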

How the results depend on the processing

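No paired analysis was possible because no label numbers replicates or ties an injured to an uninjured sample. The count of genes called across the array was 2641 with median centring of each array, 1173 with slide as a fixed block and 1229 above 1.5-fold, against 5309, and between 3996 and 5443 when each array was left out in turn. Of the 8 myelin genes, 0 were called except for 3 with slide as a random block, 2 with array weights and between 0 and 2 when each array was left out. Across all 20898 genes, 7404 were called with slide as a random block and 6356 with array weights, both more than in the main fit. The correlation within slides was −0.21, which lowers p-values under the random block. Values under other settings changed sign as follows, with no call in any of them. Normexp fitted on all spots gave −0.019 for Egr2 and −0.0041 for Hapln2, and no background correction gave −0.045 for Hapln2. An offset of 0 gave 0.062 for Pmp2. Agilent's own ratio gave −0.22 for Hapln2. Median centring gave −0.086 for Egr2, −0.065 for Hapln2 and −0.044 for Pdgfra. The Cy5 channel alone gave 0.014 for Mal, 0.024 for Ncmap, −0.16 for Hapln2, −0.0060 for Prph, −0.0043 for Pdgfra and 0.0029 for Pou3f1. Slide as a fixed block gave −0.057 for Mbp, −0.39 for Pmp22, −0.021 for Mag and −1.21 for Egr2. Slide as a random block gave 0.097 for Pmp2, 0.051 for Mal, −0.039 for Hapln2 and −0.0078 for Pdgfra. Array weights gave 0.057 for Mal, −0.0044 for Hapln2 and −0.10 for Pdgfra, and the average of a gene's probes −0.18 for Mbp and −0.0062 for Pdgfra. When each array was left out, Egr2 ranged from −0.33 to 0.31, Pmp2 from −0.36 to 0.13, Mal from −0.17 to 0.21, Hapln2 from −0.050 to 0.046, Gja1 from −0.23 to 0.0021 and Pdgfra from −0.11 to 0.22. The cause was not tested in any of these. The fits of the Mbp variant 8 probe and of the genes of other lists under all settings, the Cy3 channel and the likeness without 2 arrays, were added after seeing the data. Pmp2, Hapln2, Gfap and Scn9a gave no value under the filter for both channels above background. Signal over background limits Pmp2, Gfap, Scn9a and Adam22, whose reference signal was not well above background on any array. It also limits Hapln2, whose reference signal was well above background on 1 of 9 arrays.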
